A study of Rattus norvegicus with 15 samples.

Results

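Timd4, Clec4f, Cd5l, Marco, Vsig4 and Cd163 mark resident Kupffer cells, the macrophages that live in the blood sinusoids of the liver. These 6 genes were taken by name from the 21576 genes of the deposited liver table, and all 6 passed the filter on low counts that left 13163 genes for testing. Each of them had reads in every one of the 15 libraries. The lowest count was 7 reads, for Timd4 in 1 chow liver. Against chow livers (CON), Timd4 was higher in livers of rats on a lipid-raising feed (HFD) and in livers of rats on that feed plus Zexie Decoction (ZXD). Cd5l and Marco were higher in ZXD than in CON by the same test, and no marker passed the test between ZXD and HFD. Marco lost its call in 6 of 15 fits that left out 1 library and in 7 of 12 other settings.

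Each group is 5 RNA-seq libraries of liver from male Sprague-Dawley rats. ZXD rats were dosed by mouth for 4 weeks with Zexie Decoction, a Chinese herbal preparation, at 2.2 g per kg per day, after 4 weeks on the lipid-raising feed, which they kept eating. HFD rats ate the feed over the same weeks and were given saline. Both groups thus share the feed, made of 66% base forage, 16.7% sucrose, 8.3% yolk, 7% lard, 2% cholesterol, 0.3% of the bile salt sodium cholate and 0.2% propylthiouracil, a drug that blocks thyroid hormone synthesis. CON rats ate normal chow and received neither the feed nor propylthiouracil. The feed therefore differs from chow in lipids and in an antithyroid drug at once, and the 2 cannot be told apart here. The labels give 10 rats per group but do not tie the libraries to rats. P-values therefore measure the spread between these libraries, which may be technical.

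Kupffer cells clear dying cells, aged red cells, bacteria and modified lipoproteins from portal blood, and they lie against the sinusoidal endothelium, whose signals help keep their identity. In the mouse, TIMD4 separates long-lived resident cells from macrophages that have lately come from blood monocytes, which gain TIMD4 late or in part. TIMD4 binds phosphatidylserine on dying cells. MARCO and CD163 are scavenger receptors, MARCO for bacteria and particles and CD163 for haemoglobin bound to haptoglobin. CD163 is also the ED2 antigen, a classical stain for resident tissue macrophages of the rat. CD5L, also called AIM, is a protein that macrophages secrete. CD5L, MARCO and CD163 all carry scavenger receptor cysteine-rich domains. VSIG4 is a complement receptor for C3b and iC3b, and CLEC4F is a lectin that binds galactose and N-acetylgalactosamine.

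Libraries held 12688915 to 13532245 counts in ZXD, 12552449 to 13687385 in HFD and 12972523 to 14228052 in CON. Reads of albumin, which hepatocytes secrete, made up 1.76 to 5.12% of counts in ZXD, 2.96 to 5.21% in HFD and 7.53 to 9.22% in CON. The scaling between libraries therefore matters. TMM factors lay between 1.01 and 1.28 in ZXD, 1.07 and 1.13 in HFD and 0.793 and 0.867 in CON. With library totals in their place, the median change of all genes on the log2 scale was 0.46 in place of 0.03 for ZXD versus CON and 0.44 in place of 0.02 for HFD versus CON. Levels below are CPM, counts divided by the TMM-scaled library size, unless said otherwise. A floor of 3 counts lay at 0.183 to 0.285 CPM, for counting error only. In whole liver RNA, fewer Kupffer cells and less of a transcript per Kupffer cell cannot be told apart.

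The promoters of 5 markers are shown because these genes carried the changes or varied most alike across libraries, Cd5l with Marco and Vsig4 with Cd163. Each is the RefSeq sequence of the rat assembly GRCr8 from 250 bases before to 50 bases after the annotated start, 5′ to 3′ on the strand of the gene. Capitals mark GAGGAA, the core bound by PU.1 and other ETS factors of the macrophage lineage, and TGCTGA, a core bound by MAF factors, on either strand.
Timd4, chr10:31686744-31687043, plus strand: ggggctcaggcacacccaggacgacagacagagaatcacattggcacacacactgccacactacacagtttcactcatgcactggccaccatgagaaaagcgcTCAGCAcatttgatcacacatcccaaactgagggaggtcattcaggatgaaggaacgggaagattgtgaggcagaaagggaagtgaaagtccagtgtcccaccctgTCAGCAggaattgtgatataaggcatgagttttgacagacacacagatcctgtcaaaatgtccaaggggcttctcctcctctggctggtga
Cd5l, chr2:175088665-175088964, plus strand: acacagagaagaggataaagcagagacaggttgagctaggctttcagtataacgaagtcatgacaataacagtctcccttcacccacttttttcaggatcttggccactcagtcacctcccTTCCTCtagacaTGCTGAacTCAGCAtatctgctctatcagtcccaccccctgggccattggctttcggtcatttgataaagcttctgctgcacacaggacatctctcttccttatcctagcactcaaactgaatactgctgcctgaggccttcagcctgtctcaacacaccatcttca
Marco, chr13:34201206-34201505, minus strand: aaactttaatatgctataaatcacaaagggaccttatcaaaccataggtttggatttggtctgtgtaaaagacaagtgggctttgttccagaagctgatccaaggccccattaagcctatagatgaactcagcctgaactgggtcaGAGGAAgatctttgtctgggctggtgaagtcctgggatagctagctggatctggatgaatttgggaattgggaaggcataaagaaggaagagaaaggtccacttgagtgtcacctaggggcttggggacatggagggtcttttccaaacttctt
Vsig4, chrX:65179659-65179958, minus strand: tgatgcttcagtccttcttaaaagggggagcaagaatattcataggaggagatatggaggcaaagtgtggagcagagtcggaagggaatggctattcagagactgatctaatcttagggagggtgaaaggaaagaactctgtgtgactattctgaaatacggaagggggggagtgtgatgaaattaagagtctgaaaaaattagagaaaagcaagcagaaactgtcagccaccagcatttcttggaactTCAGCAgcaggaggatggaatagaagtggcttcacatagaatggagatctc
Cd163, chr4:158770524-158770823, plus strand: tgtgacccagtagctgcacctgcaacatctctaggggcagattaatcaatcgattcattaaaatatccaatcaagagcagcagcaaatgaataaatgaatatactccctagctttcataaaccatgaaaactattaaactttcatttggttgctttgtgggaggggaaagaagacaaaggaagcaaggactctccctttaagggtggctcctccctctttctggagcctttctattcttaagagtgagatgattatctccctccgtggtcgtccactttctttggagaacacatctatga
The MAF core was found at 2 places in the Timd4 promoter, 2 in that of Cd5l and 1 in that of Vsig4. The PU.1 core was found once in the promoters of Cd5l and Marco. Neither was found in the windows of Cd163 or of Clec4f, whose promoter is not printed. Among all 33469 RefSeq promoters of 300 bases, 27.6% held the PU.1 core and 18.4% held the MAF core, so a match is common. The E-box CACGTG (6.42% of promoters) was found in none of the 6. The TATA box TATAAA (14.2% of promoters) was found in Marco alone, far upstream of the start.

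Per unit of transcript length, Clec4f and Cd5l were the most abundant markers in every CON and HFD library and in ZXD 1 and ZXD 2. Timd4 was the least abundant marker in every library but HFD 2 and HFD 5. There Cd163 was lower, at 2.85 FPKM beside 2.86 FPKM for Timd4 in HFD 2 and at 2.30 beside 3.50 FPKM in HFD 5. Lengths were taken into account with the deposited FPKM values, which compare genes within a library. Timd4 stayed between 0.760 and 3.24 FPKM in ZXD, 0.600 and 3.61 FPKM in HFD and 0.193 and 0.470 FPKM in CON. In all 5 CON livers the order began with Clec4f, then Cd5l, then Vsig4. In HFD livers Clec4f was first in 4 libraries and Cd5l was first in HFD 1, at 80.7 FPKM beside 74.4 FPKM for Clec4f. In ZXD livers Clec4f was first in ZXD 1 and ZXD 2. Cd5l led at 195 FPKM in ZXD 4 and 205 FPKM in ZXD 5, and Marco led at 228 FPKM in ZXD 3, where Cd5l had 175 and Clec4f 91.4 FPKM.

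**Figure D1:**
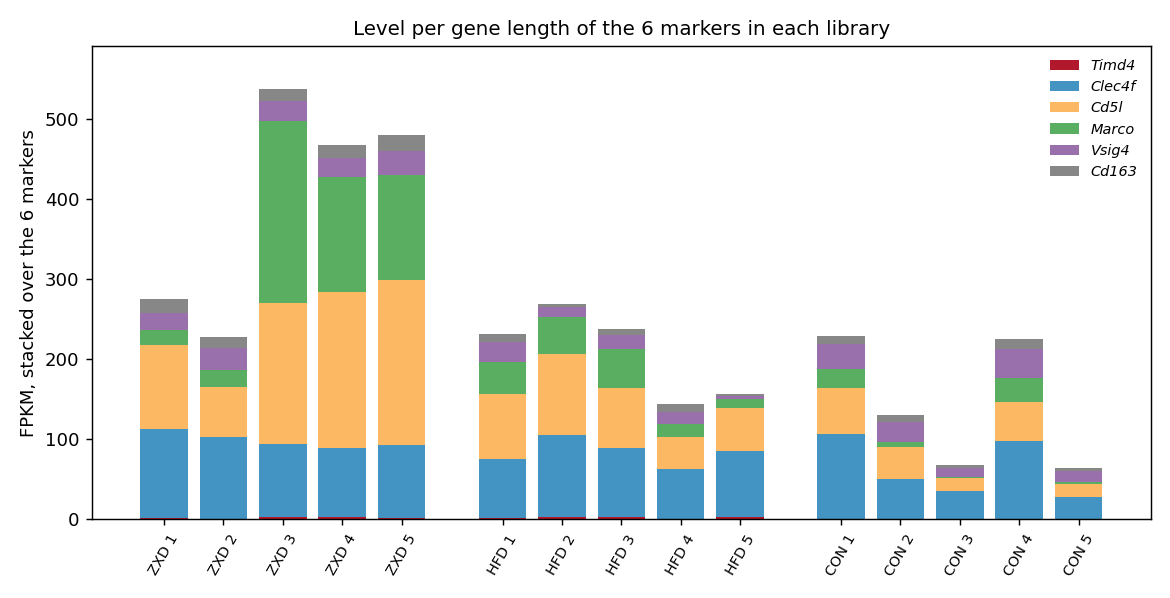
Deposited FPKM of the 6 resident Kupffer cell markers stacked in 1 bar per library (y axis, FPKM), ZXD to the left of HFD and CON, with 1 colour per marker. Marco forms 27.4 to 42.5% of the bar in ZXD 3, ZXD 4 and ZXD 5 and at most 20.6% in any other library, and CON 3 and CON 5 have the lowest bars.

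The mix of the 6 markers differed between the groups, as shares of their summed FPKM. Vsig4 took 4.55 to 11.9% in ZXD, 2.66 to 10.5% in HFD and 13.3 to 21.0% in CON, and CON did not overlap either other group. Clec4f took 17.0 to 45.1% in ZXD, 32.1 to 52.0% in HFD and 38.9 to 51.9% in CON. Cd5l took 27.3 to 42.7% in ZXD, 27.6 to 37.7% in HFD and 21.8 to 30.3% in CON. Marco took 6.72 to 42.5% in ZXD, 7.00 to 20.6% in HFD and 1.84 to 13.1% in CON, with ZXD 3, ZXD 4 and ZXD 5 above all other libraries. A share falls when another marker takes more, so these shares are not independent of each other, and none was tested.

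Between HFD and CON the question is what the feed did to the markers. Of the 6, Timd4 rose in HFD and none fell by edgeR's quasi-likelihood test at an adjusted p under 0.05. Across all tested genes 10.0% were called higher in HFD and 10.9% lower, so 1 marker of 6 is about what the background gives. By limma voom 0 markers were called higher, and by DESeq2 Vsig4 was also called, lower in HFD. No marker had groups that did not overlap, against 6.59% of all genes with HFD wholly above CON and 8.46% with HFD wholly below. On library totals as the scale the genes called shifted to 5390 higher and 505 lower, against 1322 and 1436 on the TMM scale. Timd4 was again the 1 marker called. List counts given below on library totals for HFD versus CON stand beside 5390 and 505 of 13163 genes, not beside the TMM shares. The median log2 fold change of the 6 markers was 0.24, against 0.02 over all tested genes, and 3 of the 6 were positive.

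Between ZXD and HFD the question is what the decoction added on the same feed. By edgeR's quasi-likelihood test 0 of 6 markers were called, and 0% of the 13163 tested genes were called higher and 0% lower. At an unadjusted p under 0.05 there were 2 markers, Cd5l and Cd163, both higher in ZXD, among 2167 genes, or 16.5% of those tested. DESeq2 called 212 genes higher and 130 lower with no marker among them, and limma voom called 0. Counts that DESeq2 gave for the lists below in ZXD versus HFD stand beside these numbers over all genes. Cd163 was the 1 marker whose groups did not overlap, higher in ZXD, against 2.14% of all genes. Of the 6 log2 fold changes 5 were positive, with a median of 0.92, against 0.02 over all tested genes.

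Between ZXD and CON the feed and the decoction act together. Timd4, Cd5l and Marco rose in ZXD by the same test and no marker fell, against 17.9% of all genes called higher and 14.8% called lower. On library totals the genes called were 6046 higher and 628 lower, against 2356 and 1943 on the TMM scale. List counts given below on library totals for ZXD versus CON stand beside 6046 and 628 of 13163 genes, not beside the TMM shares. Leaving out CON 3 and CON 5, an alternative chosen after the data were seen, left 0 of the 6 called, and leaving out ZXD 3 and ZXD 4 left Timd4 alone. Timd4 was also the 1 marker whose ZXD values all lay above its CON values, against 8.20% of all genes. The median log2 fold change of the 6 was 1.12, against 0.03 over all tested genes. Each pair of comparisons shares 1 group of libraries, so the 3 comparisons are not independent.

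**Figure D2:**
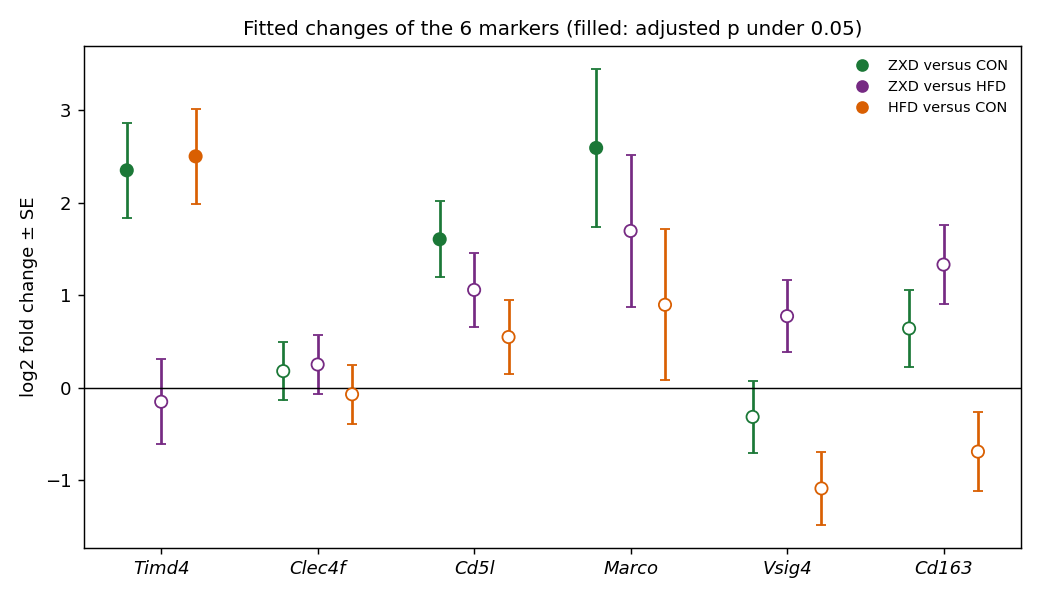
Log2 fold change (y axis) of each of the 6 markers (x axis) in 3 comparisons between ZXD, HFD and CON, with bars for the standard error of edgeR's quasi-likelihood fit on 5 libraries a group and filled points for an adjusted p under 0.05. Timd4 is called in both comparisons with CON, at 2.50 and 2.35, and Cd5l and Marco are called in ZXD versus CON, at 1.61 and 2.59.

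Timd4, the phosphatidylserine receptor, was the marker with the clearest rise over chow livers. Its CPM was 3.92, 2.10, 8.18, 6.84 and 6.02 in ZXD livers, 3.17, 7.33, 9.38, 1.57 and 8.68 in HFD livers and 0.718, 1.61, 0.665, 1.60 and 0.681 in CON livers. Every ZXD library lay above every CON library, and 4 of the 5 HFD libraries did, with HFD 4 beside the highest CON values. In HFD versus CON the log2 fold change was 2.50 ± 0.51 (SE, adjusted p = 0.00423, edgeR), a 5.67-fold rise. In ZXD versus CON it was 2.35 ± 0.51 (SE, adjusted p = 0.00433, edgeR), a 5.10-fold rise. In ZXD versus HFD it was -0.15 ± 0.46 (SE, adjusted p = 0.886, edgeR), with group means of 5.41 ± 2.41 CPM in ZXD and 6.03 ± 3.46 CPM in HFD (SD, n = 5 each). CON libraries held 7 to 18 reads of Timd4, so its level there rests on few counts. The HFD call stood in each of 15 fits that left out 1 library, with edgeR's adjusted p between 0.00119 and 0.0138, and was lost with limma voom (log2 fold change 2.28, adjusted p = 0.0551). Without CON 3 and CON 5 it was 2.21 with an edgeR adjusted p of 0.0453. The ZXD versus CON call was lost without CON 3 and CON 5 (2.02, adjusted p = 0.0531, edgeR).

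Cd5l, the secreted protein AIM, was higher in ZXD livers than in CON livers, with HFD livers between them. Its CPM was 192, 121, 309.7, 300.3 and 379 in ZXD, 140.4, 182, 135, 72.7 and 94.8 in HFD and 138, 94.2, 38.1, 122 and 35.8 in CON. ZXD 2 lay within the HFD and CON ranges, while the other 4 ZXD libraries lay above both. The ZXD versus CON log2 fold change was 1.61 ± 0.41 (SE, adjusted p = 0.00955, edgeR), a 3.04-fold rise. The ZXD versus HFD value was 1.06 ± 0.40 (SE, adjusted p = 0.22, edgeR), with means of 260.4 ± 103 CPM in ZXD and 125 ± 42.7 CPM in HFD (SD, n = 5 each). The HFD versus CON value was 0.55 ± 0.40 (SE, adjusted p = 0.335, edgeR), which did not pass the test. The ZXD versus CON call was lost without CON 3 and CON 5 (1.11, adjusted p = 0.0609, edgeR) and without ZXD 3 and ZXD 4 (1.43, adjusted p = 0.0663, edgeR).

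Marco, the scavenger receptor for bacteria and particles, had the widest spread of the 6 relative to its mean in ZXD livers and in CON livers. Its CPM was 34.1, 41.1, 407, 223 and 245 in ZXD, 71.5, 83.1, 89.4, 29.7 and 19.3 in HFD and 58.5, 15.3, 3.04, 73.6 and 6.81 in CON. ZXD 3, ZXD 4 and ZXD 5 lay far above every other library, and ZXD 1 and ZXD 2 lay within the HFD and CON ranges. Proliferation genes and monocyte and neutrophil genes split the libraries in the same way. Proliferation genes summed to 44.2, 110 and 49.2 CPM in ZXD 3, ZXD 4 and ZXD 5 and to at most 23.9 CPM in any other library. Monocyte and neutrophil genes summed to 287, 491 and 118 CPM there and to at most 77.8 CPM elsewhere. Pan-macrophage genes also had their highest sums there, though with 2134 CPM in ZXD 5 beside 2130 CPM in HFD 2. The part of these genes in the Marco values was not tested. The ZXD versus CON log2 fold change was 2.59 ± 0.86 (SE, adjusted p = 0.0317, edgeR), with means of 189.9 ± 156 CPM in ZXD and 31.5 ± 32.3 CPM in CON (SD, n = 5 each). The ZXD versus HFD value was 1.70 ± 0.83 (SE, adjusted p = 0.322, edgeR) and the HFD versus CON value was 0.90 ± 0.82 (SE, adjusted p = 0.448, edgeR). The ZXD versus CON call was lost on leaving out CON 2, CON 3, CON 5, ZXD 3, ZXD 4 or ZXD 5 in turn, with edgeR's adjusted p between 0.055 and 0.0837. It was also lost without CON 3 and CON 5 together (1.91, adjusted p = 0.138, edgeR) and without ZXD 3 and ZXD 4 together (1.76, adjusted p = 0.213, edgeR).

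Cd163, the haemoglobin scavenger receptor, was the marker that separated ZXD from HFD livers by its values. Its CPM was 67.6, 58.8, 57.9, 54.0 and 78.2 in ZXD, 38.9, 11, 28.4, 38.7 and 8.61 in HFD and 54.0, 45.1, 22, 65.0 and 16.8 in CON. All 5 ZXD libraries lay above all 5 HFD libraries, and CON ran across both. The ZXD versus HFD log2 fold change was 1.33 ± 0.43 (SE, unadjusted p = 0.00702, adjusted p = 0.183, edgeR), 2.52-fold, and did not pass the test after adjustment. The ZXD versus CON value was 0.64 ± 0.42 (SE, adjusted p = 0.259, edgeR). With library totals as the scale it was 1.08 with an edgeR adjusted p of 0.0425, so that call depends on the scaling. The HFD versus CON value was -0.69 ± 0.42 (SE, adjusted p = 0.249, edgeR), with HFD 2 and HFD 5 lowest in their group.

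Vsig4, the complement receptor, had its lowest mean in HFD livers. Its CPM was 27.8, 37.8, 31.1, 25.3 and 40.5 in ZXD, 30.2, 16.5, 23.0, 19.97 and 5.22 in HFD and 52.6, 42.2, 19.6, 66.0 and 21.9 in CON. CON 1, CON 2 and CON 4 lay above all HFD and ZXD libraries, while CON 3 and CON 5 lay within the HFD range. The HFD versus CON log2 fold change was -1.09 ± 0.39 (SE, unadjusted p = 0.0143, adjusted p = 0.0605, edgeR), with means of 19.0 ± 9.20 CPM in HFD and 40.4 ± 19.9 CPM in CON (SD, n = 5 each). It passed the threshold with DESeq2 (adjusted p = 0.0259) and, by edgeR, without CON 3 (adjusted p = 0.0469), without HFD 1 (adjusted p = 0.0375) and without CON 3 and CON 5 together (-1.50, adjusted p = 0.0296). The ZXD versus HFD value was 0.77 ± 0.39 (SE, adjusted p = 0.335, edgeR) and the ZXD versus CON value was -0.32 ± 0.39 (SE, adjusted p = 0.564, edgeR), which had the other sign on library totals.

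Clec4f, the galactose-binding lectin, drew the most reads of the 6 in every CON library, and no comparison of it passed the test. Its CPM was 196, 192, 155, 127 and 161 in ZXD, 124, 178, 150, 110 and 136 in HFD and 244, 116, 81.9, 232 and 61.1 in CON. CON held both the 2 highest and the 2 lowest values of all 15 libraries, and the SD was 28.4 CPM in ZXD, 26.0 CPM in HFD and 85.3 CPM in CON (n = 5 each). The log2 fold change was -0.07 ± 0.32 in HFD versus CON (SE, adjusted p = 0.887, edgeR), with the other sign on library totals. It was 0.25 ± 0.32 in ZXD versus HFD (SE, adjusted p = 0.699, edgeR) and 0.18 ± 0.32 in ZXD versus CON (SE, adjusted p = 0.701, edgeR). With standard errors of this size a modest change in either direction could not be seen.

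**Figure D3:**
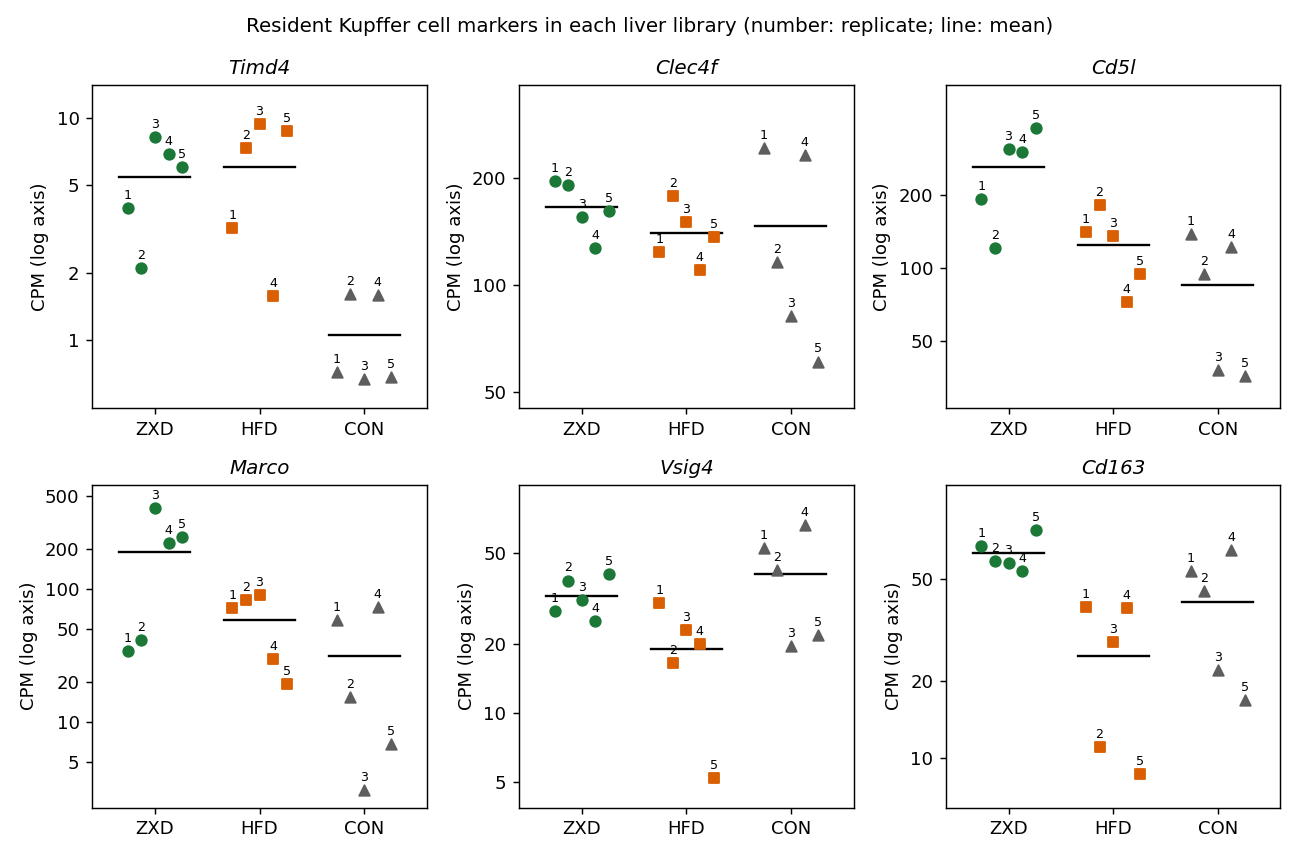
CPM of each marker in each library (log y axis), 1 panel per marker, with ZXD left of HFD and CON replicate numbers beside the points and a line at each group mean of 5 libraries. Timd4 in ZXD lies wholly above CON, Cd163 in ZXD lies wholly above HFD, and Marco splits the ZXD libraries into 3 at 223 CPM or more and 2 at 34.1 and 41.1 CPM.

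The CON libraries differed from each other in all markers at once. CON 3 and CON 5 were the 2 lowest CON libraries for all 6 markers, and CON 4 was among the 2 highest for all 6. The low place of CON 3 and CON 5 was not particular to the markers. They also had the lowest CON sums of sinusoidal endothelial genes (141 and 118 CPM), pan-macrophage genes (703 and 670 CPM) and T and NK cell genes (15.7 and 13.1 CPM). Hepatocyte and cholangiocyte sums did not follow this order. HFD 4 and HFD 5 were each lowest in their group for 3 markers. ZXD 5 was highest for 3 markers and ZXD 4 lowest for 3. Marker pairs also moved together across the 15 libraries in log2 CPM, as a description of libraries that share groups. Cd5l and Marco had a Pearson r of 0.93, and 0.89 for their deviations from the group means. Vsig4 and Cd163 had 0.83, and 0.87 for the deviations, whereas Timd4 and Vsig4 had -0.37.

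Ratios between markers within a library do not depend on the scaling between libraries. The FPKM of Cd163 over that of Vsig4 was 0.52 to 0.813 in ZXD, 0.223 to 0.647 in HFD and 0.256 to 0.377 in CON, and ZXD did not overlap CON. That of Timd4 over Clec4f was 0.0074 to 0.0363 in ZXD, 0.0096 to 0.0429 in HFD and 0.00199 to 0.00931 in CON, so HFD did not overlap CON while ZXD did. That of Marco over Clec4f was 0.165 to 2.5 in ZXD, 0.135 to 0.567 in HFD and 0.0354 to 0.303 in CON, with overlap between all 3 groups. That of Cd5l over Clec4f was 0.604 to 2.27 in ZXD, 0.635 to 1.08 in HFD and 0.447 to 0.778 in CON, also with overlap. These ratios were chosen with the data known and were not tested.

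In ZXD versus CON genes of macrophages of any kind rose beside Timd4, Cd5l and Marco, the markers called higher there. The list of 16 pan-macrophage genes, none of them among the 6 markers, summed to 734 to 4420 CPM in ZXD, 509 to 2130 CPM in HFD and 670 to 1360 CPM in CON, and none of its genes was at 0 in any library. ZXD 3 and ZXD 4 had the 2 highest sums. Against CON, 15 of the 16 rose in ZXD and none fell, beside 17.9% and 14.8% of all genes. The median log2 fold change of the 16 was 2.02 against 0.03 over all genes. Without CON 3 and CON 5 the count of 15 became 4, and without ZXD 3 and ZXD 4 it became 3. Mertk, a receptor for dying cells, had 46.7 ± 6.53 CPM in ZXD and 21.3 ± 6.28 CPM in CON (SD, n = 5 each, adjusted p = 0.00117, edgeR). Adgre1, the F4/80 antigen, had 43.3 ± 11.9 CPM in ZXD and 11.4 ± 6.64 CPM in CON (SD, n = 5 each, adjusted p = 0.00386, edgeR). In HFD versus CON 6 of the 16 rose, beside 10.0% of all genes. Among these 6, Tyrobp, a signalling adaptor, had 37.1 ± 28.4 CPM in HFD and 7.54 ± 2.99 CPM in CON (SD, n = 5 each, adjusted p = 0.0241, edgeR). Its adjusted p reached 0.0659 with 1 library left out. The count of 6 lay between 0 and 11 when 1 library was left out, moving by over 1.5 times without CON 2, CON 3, CON 4, CON 5, HFD 2, HFD 3, HFD 4 or HFD 5. It was 0 without CON 3 and CON 5 together and 0 with limma voom.

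The markers were also set against the pan-macrophage sum of the same library, as a description with no test. Per 100 CPM of pan-macrophage genes Timd4 had 0.155 to 0.305 CPM in ZXD, 0.272 to 0.821 CPM in HFD and 0.0529 to 0.169 CPM in CON, so HFD did not overlap CON and ZXD overlapped it. Vsig4 had 0.571 to 5.15 CPM in ZXD, 0.326 to 3.93 CPM in HFD and 2.79 to 6.56 CPM in CON on the same scale. Clec4f had 2.87 to 26.1 CPM in ZXD, 8.35 to 21.6 CPM in HFD and 9.11 to 23.1 CPM in CON. With the level of the pan-macrophage list as a covariate, Timd4 kept its call in HFD versus CON (log2 fold change 1.40, adjusted p = 0.0397, edgeR), whereas no marker was called in ZXD versus CON. There the log2 fold change was 0.69 for Timd4 (adjusted p = 0.449), 0.42 for Cd5l (adjusted p = 0.547) and 0.29 for Marco (adjusted p = 0.893), all by edgeR.

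**Figure D4:**
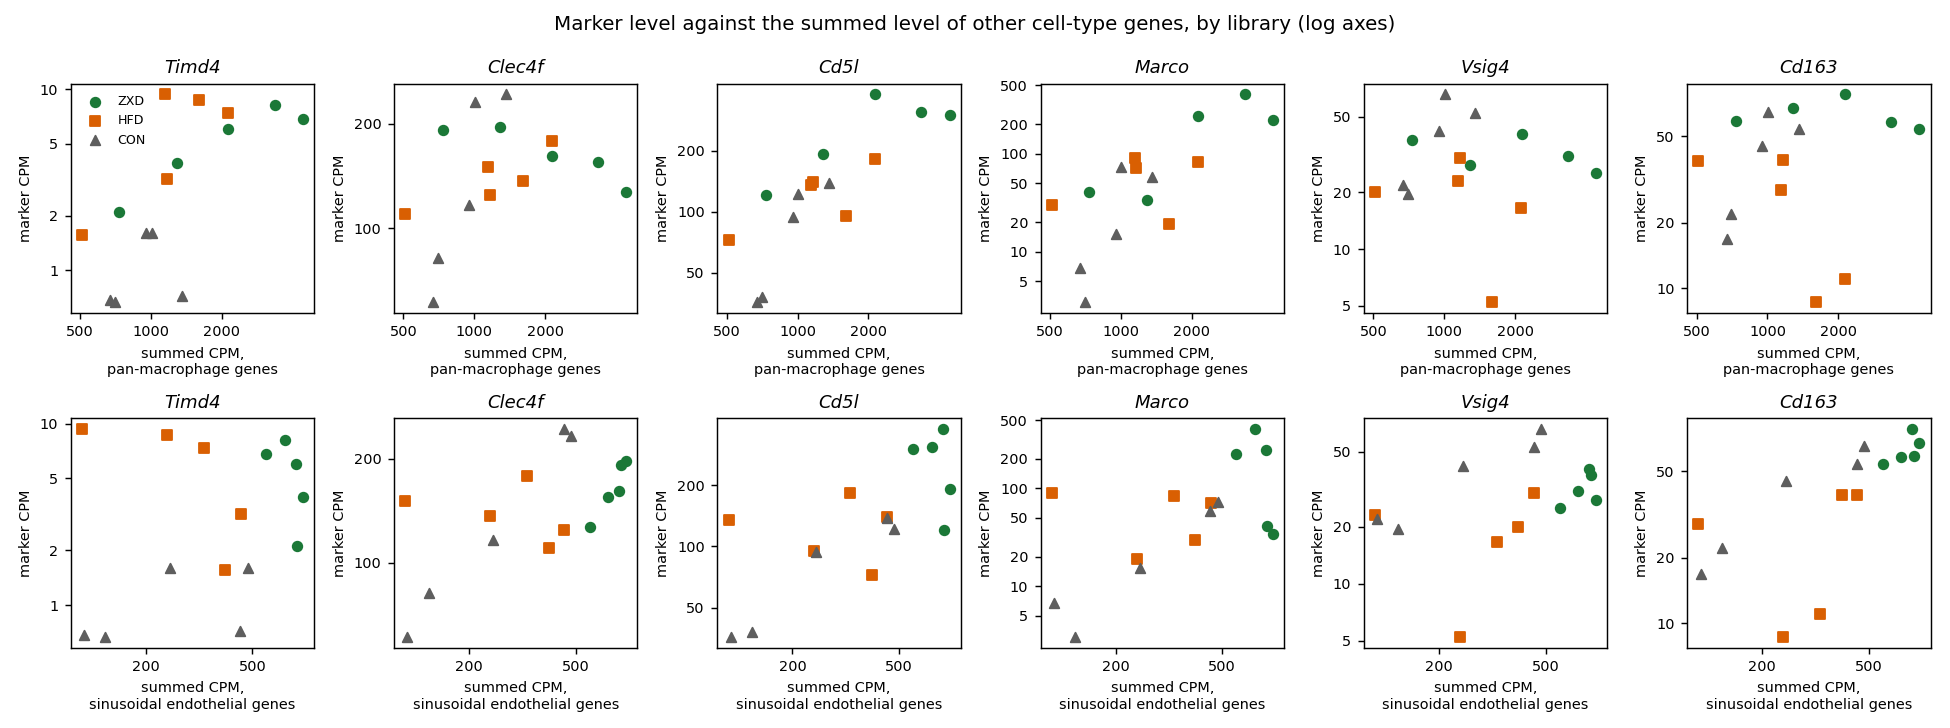
CPM of each of the 6 markers in each library (y axis, log scale) against the summed CPM of the pan-macrophage list (upper panels) and of the sinusoidal endothelial list (lower panels; x axes, log scale), with 1 point per library, coloured by group. All 5 ZXD libraries lie right of all HFD and CON libraries on the sinusoidal endothelial axis, at 564 CPM or more.

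Markers of the sinusoidal endothelium, the neighbours of Kupffer cells, were also higher in ZXD livers. The 11 genes summed to 564 to 772 CPM in ZXD, 115 to 452 CPM in HFD and 118 to 480 CPM in CON, with none at 0 in any library, and ZXD did not overlap either group. Against CON, 7 of the 11 rose in ZXD and none fell, beside 17.9% and 14.8% of all genes. Among those that rose, Oit3 had 34.9 ± 8.41 CPM in ZXD and 12.7 ± 6.94 CPM in CON (SD, n = 5 each, adjusted p = 0.008, edgeR). Cdh5, the cadherin of endothelial junctions, had 36.3 ± 6.73 CPM in ZXD and 12.8 ± 9.20 CPM in CON (SD, n = 5 each, adjusted p = 0.0121, edgeR), and it lost its call without CON 3 and CON 5 (adjusted p = 0.0835, edgeR) and without ZXD 3 and ZXD 4 (adjusted p = 0.0614, edgeR). The count of 7 was 1 without either of these pairs and between 2 and 9 with 1 library left out, lower by over 1.5 times without CON 2, CON 3 or CON 5. It was 11 on library totals. In ZXD versus HFD 0 of 11 were called by edgeR, 2 by DESeq2 and 0 by limma voom. At an unadjusted p under 0.05 by edgeR were 9 of the 11, beside 16.5% of all genes. Lyve1, a hyaluronan receptor, had 122 ± 12.9 CPM in ZXD and 41.3 ± 20.3 CPM in HFD (SD, n = 5 each, adjusted p = 0.155, edgeR). With the level of this list as a covariate the ZXD versus CON log2 fold change was 1.04 for Cd5l (adjusted p = 0.161) and 1.95 for Marco (adjusted p = 0.188), by edgeR, and Timd4 kept its call. Per 100 CPM of the endothelial genes ZXD lay wholly below CON for 3 markers. Clec4f had 22.2 to 26 CPM in ZXD and 47.3 to 58.1 CPM in CON. Vsig4 had 3.6 to 5.57 and 11.7 to 18.6 CPM, and Cd163 7.98 to 10.8 and 12 to 18.4 CPM. Timd4, Cd5l and Marco overlapped CON on this scale, and no such ratio was tested. The part of either cell type in the marker changes was not tested.

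Of 12 other genes known from Kupffer cells, 7 rose in ZXD versus CON and none fell, beside 17.9% and 14.8% of all genes. The median log2 fold change of the 12 was 1.24. Cd38, an enzyme that breaks down NAD, had 74.5 ± 42.9 CPM in ZXD and 15.6 ± 8.46 CPM in CON (SD, n = 5 each, adjusted p = 0.00542, edgeR). Ptgs1, a cyclooxygenase of prostaglandin synthesis, had 63.6 ± 26.9 CPM in ZXD and 19.96 ± 9.12 CPM in CON (SD, n = 5 each, adjusted p = 0.00603, edgeR). The count was 0 without CON 3 and CON 5 and 0 without ZXD 3 and ZXD 4. In HFD versus CON 0 of the 12 were called by edgeR, with 5 higher and 1 lower at an unadjusted p under 0.05, 4 called higher by DESeq2 and 0 by limma voom. Of all tested genes 37% had an unadjusted p under 0.05 by edgeR there, in either direction, and DESeq2 called 1912 higher. The 0 by edgeR is not firm, since edgeR called 7 of them higher on library totals, beside 5390 of all 13163 genes. EdgeR called 0 to 4 higher with 1 library left out, moved by CON 1, HFD 4, ZXD 2 or ZXD 4, and 1 lower without CON 5. Between ZXD and HFD all 12 log2 fold changes were positive and 0 were called by edgeR, DESeq2 or limma voom. At an unadjusted p under 0.05 by edgeR were 3 of the 12, beside 16.5% of all genes. Siglec1, a sialic acid receptor, had 50.8 ± 27.7 CPM in ZXD and 20.6 ± 7.03 CPM in HFD (SD, n = 5 each, adjusted p = 0.237, edgeR).

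Of 12 transcription factors linked to Kupffer cell identity 2 rose and 2 fell in HFD versus CON, near the 10.0% and 10.9% of all genes called in each direction. Id1, a target of BMP signalling, rose to 32.6 ± 27.8 CPM in HFD, against 5.01 ± 1.52 CPM in CON (SD, n = 5 each, adjusted p = 0.00215, edgeR). Nr1h3, the oxysterol receptor LXR alpha, had 117 ± 6.36 CPM in HFD and 162 ± 18.7 CPM in CON (SD, n = 5 each, adjusted p = 0.00828, edgeR). The Nr1h3 call was lost on library totals (log2 fold change -0.05) and with the pan-macrophage covariate. It was also lost without CON 3 and CON 5 (adjusted p = 0.0568, edgeR). Which liver cells the Nr1h3 reads came from was not tested. On library totals 5 of the 12 rose and 1 fell, beside 5390 and 505 of all 13163 genes. Leaving out CON 3, CON 4, CON 5, HFD 2, HFD 5 or ZXD 2 moved the number that rose on the TMM scale, to between 1 and 4. Against CON, 6 rose and 2 fell in ZXD, beside 17.9% and 14.8% of all genes, with Tfec at 16.2 ± 8.20 CPM in ZXD and 2.74 ± 2.29 CPM in CON (SD, n = 5 each, adjusted p = 0.00292, edgeR). The 6 became 3 without CON 3 and CON 5 and 3 without ZXD 3 and ZXD 4, and on library totals 9 rose and 1 fell. The number that fell was 1 without CON 2, CON 3, CON 4, ZXD 1, ZXD 3 or ZXD 4. Between ZXD and HFD 0 of 12 were called by edgeR, 0 by limma voom and 2 by DESeq2. At an unadjusted p under 0.05 by edgeR were 5 of the 12, beside 16.5% of all genes.

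The niche list holds 12 genes for signals that act on Kupffer cells and for receptors of such signals, Csf1r among them. Of these 12, 1 rose and 2 fell in HFD versus CON, near the 10.0% and 10.9% of all genes. Csf1, the growth factor of macrophages, rose to 59.7 ± 33.3 CPM in HFD, against 15.7 ± 7.34 CPM in CON (SD, n = 5 each, adjusted p = 0.0134, edgeR). It was the 1 that rose, and the count was 2 without HFD 4, ZXD 2 or ZXD 4 and 0 without CON 3 and CON 5. Gdf2, the liver-made ligand BMP9, was at 17.3 ± 6.18 CPM in HFD and 32.3 ± 4.83 CPM in CON (SD, n = 5 each, adjusted p = 0.01, edgeR) and was 1 of 2 that fell, though not on library totals (adjusted p = 0.0774, edgeR), where 4 of the 12 rose and 1 fell. For ZXD against CON, 4 of 12 rose and 1 fell, beside 17.9% and 14.8% of all genes, and on library totals 7 rose and 0 fell. Csf1r, the receptor of CSF1, had 188 ± 88.3 CPM in ZXD and 49.3 ± 25 CPM in CON (SD, n = 5 each, adjusted p = 0.00749, edgeR). Dll4, a Notch ligand of the sinusoids, had 11.1 ± 1.65 CPM in ZXD and 5.64 ± 2.65 CPM in CON (SD, n = 5 each, adjusted p = 0.0147, edgeR). The number that rose was 0 without CON 3 and CON 5 and 1 without ZXD 3 and ZXD 4. The number that fell was between 0 and 2 without CON 1, CON 4, HFD 1, ZXD 1, ZXD 3, ZXD 4 or ZXD 5.

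Genes of recruited and lipid-associated macrophages and of blood monocytes rose beside Timd4, Cd5l and Marco. Of 14 genes of the first kind 13 rose in ZXD versus CON by edgeR, beside 17.9% of all genes, with a median log2 fold change of 2.86. That count was 1 with limma voom and 0 with the pan-macrophage list as a covariate. Gpnmb, a glycoprotein of lipid-laden macrophages, had 533 ± 573 CPM in ZXD and 16.4 ± 14.3 CPM in CON (SD, n = 5 each, adjusted p = 0.00372, edgeR). The count fell to as few as 4 when any of the CON libraries, ZXD 3 or ZXD 4 was left out, and was 2 without CON 3 and CON 5 and 2 without ZXD 3 and ZXD 4. In HFD versus CON 7 of the 14 rose, beside 10.0% of all genes. Among these 7, Lgals3, galectin 3, had 61.3 ± 59.1 CPM in HFD and 4.44 ± 2.56 CPM in CON (SD, n = 5 each, adjusted p = 0.0107, edgeR). The count of 7 was between 3 and 9 with 1 library left out, moved by CON 2, CON 3, CON 4, CON 5, HFD 2 or HFD 5. It was 0 without CON 3 and CON 5 and 0 with limma voom. Monocyte and neutrophil genes summed to 16.2 to 491 CPM in ZXD, 15 to 77.8 CPM in HFD and 7.51 to 27.6 CPM in CON. Of this list Mpo and Camp were at 0 in some libraries of all groups, and S100a8, Vcan and Cxcr2 in some CON libraries. ZXD 3, ZXD 4 and ZXD 5, with 287, 491 and 118 CPM, also held high Marco. Of 10 tested genes of this list 8 rose in ZXD versus CON by edgeR, beside 17.9% of all genes. The number was 2 without either pair of libraries and 2 with limma voom. The part of recruited cells in the rise of Timd4, Cd5l or Marco was not tested.

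Genes that share a role with a marker gave further values, first for Timd4. Among 13 tested genes for the clearance of dying cells, 2 rose and 1 fell in HFD versus CON, near the 10.0% and 10.9% of all genes. Tyro3, a receptor that reads phosphatidylserine through bridging proteins, had 12.6 ± 3.94 CPM in HFD and 4.4 ± 0.871 CPM in CON (SD, n = 5 each, adjusted p = 0.0013, edgeR). Gas6, such a bridging protein, had 136 ± 52.6 CPM in HFD and 68.1 ± 21.3 CPM in CON (SD, n = 5 each, adjusted p = 0.0184, edgeR), and its call was lost without CON 3 (adjusted p = 0.051, edgeR) or HFD 5 (adjusted p = 0.0521, edgeR). The number that rose was 1 without CON 3 or HFD 5, and the number that fell was between 0 and 2 without CON 2, CON 4, HFD 1, HFD 2 or HFD 5. Against CON, 4 rose and 1 fell in ZXD, beside 17.9% and 14.8% of all genes, and 2 rose without CON 3 and CON 5. Between ZXD and HFD 0 were called by edgeR and limma voom and 2 by DESeq2. At an unadjusted p under 0.05 by edgeR were 5 of the 13, beside 16.5% of all genes.

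The scavenger receptor list holds the families of Marco, Cd163 and Cd5l and others, such as those of Cd36 and Lrp1. Of its 14 tested genes 6 rose and 1 fell in HFD versus CON, beside 10.0% and 10.9% of all genes. Cd36, a receptor for fatty acids and oxidised lipoproteins, had 89.8 ± 28 CPM in HFD and 34.8 ± 25.7 CPM in CON (SD, n = 5 each, adjusted p = 0.0194, edgeR), with an adjusted p of 0.0508 without HFD 5. Lrp1, which hepatocytes also carry, fell to 432 ± 85.9 CPM in HFD, against 1090 ± 282 CPM in CON (SD, n = 5 each, adjusted p = 0.000903, edgeR). The number that rose was between 1 and 6 with 1 library left out, moved by CON 3, CON 4, CON 5, HFD 2 or HFD 5, and was 0 without CON 3 and CON 5. Against CON, 7 rose and 1 fell in ZXD, beside 17.9% and 14.8% of all genes. Msr1, scavenger receptor A, had 70.3 ± 33.3 CPM in ZXD and 17.2 ± 12.1 CPM in CON (SD, n = 5 each, adjusted p = 0.00738, edgeR). The 7 became 1 without CON 3 and CON 5 and 0 without ZXD 3 and ZXD 4. Between ZXD and HFD 0 were called by edgeR and limma voom and 4 by DESeq2. At an unadjusted p under 0.05 by edgeR 5 were higher and 1 lower, beside 16.5% of all genes in either direction. Msr1 was among the DESeq2 calls, at 70.3 ± 33.3 CPM in ZXD and 22.1 ± 10.1 CPM in HFD (SD, n = 5 each), with an edgeR adjusted p of 0.163.

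Iron, complement and lectin genes, the fields of Cd163, Vsig4 and Clec4f, are set beside the 10.0% and 10.9% of all genes called higher and lower in HFD versus CON and the 17.9% and 14.8% called in ZXD versus CON. Of 12 genes for haemoglobin and iron handling 4 rose and 1 fell in HFD versus CON, among them Ftl1, the ferritin light chain, at 3150 ± 389 CPM in HFD and 1970 ± 223 CPM in CON (SD, n = 5 each, adjusted p = 0.00662, edgeR). Against CON, 4 rose and 2 fell in ZXD. Hmox1, haem oxygenase, had 98.9 ± 50.7 CPM in ZXD and 33.1 ± 17.4 CPM in CON (SD, n = 5 each, adjusted p = 0.00768, edgeR), and it lost its call without CON 3 and CON 5 (adjusted p = 0.0627, edgeR) and without ZXD 3 and ZXD 4 (adjusted p = 0.0895, edgeR). The 4 that rose became 1 without either pair. Hamp, the iron hormone hepcidin of hepatocytes, had 627 ± 169 CPM in ZXD and 276 ± 112 CPM in CON (SD, n = 5 each, adjusted p = 0.00729, edgeR). Of 11 tested complement genes 3 rose and 1 fell in HFD versus CON, and 6 rose and 1 fell in ZXD versus CON. Cr1l, a complement regulator, had 62.9 ± 2.05 CPM in ZXD and 41.1 ± 5.06 CPM in CON (SD, n = 5 each, adjusted p = 0.000523, edgeR). Of 11 tested lectin genes 2 rose and 1 fell in HFD versus CON, and 5 rose and 2 fell in ZXD versus CON. The lectin counts in HFD versus CON are near the shares over all genes. Without CON 3 and CON 5 the counts higher in ZXD versus CON were 5 for complement and 2 for lectin genes, and without ZXD 3 and ZXD 4 they were also 5 and 2. Asgr1, the galactose-binding receptor of hepatocytes, fell to 199 ± 24.4 CPM in ZXD, against 393 ± 69.6 CPM in CON (SD, n = 5 each, adjusted p = 0.000605, edgeR). On library totals in place of TMM 5390 of all 13163 genes were called higher and 505 lower in HFD versus CON. The counts for HFD versus CON on that scale were 6 higher and 1 lower for iron, 7 higher and 0 lower for complement and 5 higher and 0 lower for lectin genes. For ZXD versus CON they were 7 and 0, 8 and 0, and 7 and 1. On the same scale the genes for clearing dying cells gave 7 higher and 0 lower in HFD and 11 higher and 0 lower in ZXD, and the scavenger receptor genes gave 6 higher and 1 lower in HFD and 10 higher and 0 lower in ZXD, each against CON.

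Other cell types were measured beside the markers by their summed levels. T and NK cell genes summed to 40.2 to 155 CPM in ZXD, 28.5 to 92.4 CPM in HFD and 13.1 to 36.5 CPM in CON. Cholangiocyte genes summed to 624 to 877 CPM in ZXD, 582 to 1020 CPM in HFD and 311 to 606 CPM in CON. Most of that sum came from the keratins Krt8 and Krt18, with means of 410 and 267 CPM in ZXD and 215 and 179 CPM in CON. The sum therefore mainly follows these keratins and does not measure the amount of cholangiocytes. The rise was not limited to the 2 keratins. Of 8 tested genes of this list 6 rose in HFD versus CON, beside 10.0% of all genes, and 3 in ZXD versus CON, beside 17.9%. The 6 became 4 without CON 3 and CON 5. Hepatocyte genes summed to 48400 to 110000 CPM in ZXD, 71900 to 105000 CPM in HFD and 163000 to 199000 CPM in CON, so both feed groups lay below CON, albumin included. Their part in the marker values was not tested.

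The genes whose log2 CPM followed each marker most closely over the 15 libraries were sought among 11772 tested genes with a mean of at least 1 CPM. The values are descriptions, since the libraries share groups and scaling. For Timd4 they were Inhbb (Pearson r 0.96, Spearman rho 0.886), Tmsb10 (0.95 and 0.90) and Pla2g2d (0.945 and 0.882). For Cd5l they were Adgre1 (0.969 and 0.911), Hpgds (0.962 and 0.964) and Dnase1l3 (0.957 and 0.929). For Marco they were Col22a1 (0.946 and 0.943), Spdl1 (0.928 and 0.904) and Gzma (0.923 and 0.818). For Cd163 they were Fam174b (0.937 and 0.961), Scarb2 (0.906 and 0.90) and Exoc5 (0.905 and 0.886). For Vsig4 they were Rsrc1 (0.898 and 0.793), Tbcd (0.884 and 0.75) and Csnk2a1 (0.874 and 0.629). For Clec4f they were Hdhd3 (0.827 and 0.825), Phf14 (0.821 and 0.889) and Exoc6 (0.802 and 0.754). Of the 18 genes, Adgre1, also on the pan-macrophage list, and Scarb2, also on the scavenger receptor list, belong to lists used above.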

How the data were processed

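The authors deposited 1 table of raw read counts (whole numbers) and FPKM for 21576 genes in 15 rat liver libraries, 5 per group, per the file headers. EdgeR is named in the submitters' processing notes without a version. Aligner, counter, strand setting and build: not given in the sources used here. The deposited FPKM equal the count over gene length and library total, so FPKM was used only to order the markers and form shares and ratios within a library. Groups come from the sample titles. Counts were TMM scaled, filtered with filterByExpr (minimum count 10, total 15; 13163 genes kept, 8413 not) and tested in 1 edgeR 4.0.16 quasi-likelihood fit in R 4.3.3, with the group as sole term and 12 residual degrees of freedom. P-values were adjusted by Benjamini-Hochberg over all tested genes, and a gene was called under 0.05. SE is the absolute log2 fold change over the root of the F statistic. Log2 CPM used for correlations carry a prior count of 2. Alternatives were library totals, RLE factors, other filters, DESeq2 1.42.0, limma voom (limma 3.58.1), a replicate block, 2 covariates and each library left out. The fit was tested on simulated counts. The named genes are the 6 markers, up to 3 called genes per list with the smallest adjusted p (or 2 with the smallest p) and the 3 most alike genes per marker. A gene that this rule takes is not reported here. The members and the 20 other lists were chosen with earlier results of these data known. The labels mention a simvastatin group, which was not analysed here.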

Additional observations from a re-analysis of the deposited data

How the results depend on the processing

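Among the 216 marker values under alternatives other than leaving out 1 library, 184 kept their direction and side of the threshold, as did 255 of 270 with 1 library left out. Timd4 in HFD versus CON lost its call with limma voom alone. The cause of the changes below was not tested.

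Signs turned in 14 marker values, all of them uncalled. Clec4f in HFD versus CON was 0.36 on library totals, 0.12 with limma voom, 0.050 with the replicate block and 0.026 with the endothelial covariate, and -0.27 to 0.19 with 1 library left out. In ZXD versus HFD the endothelial covariate gave -0.42 for Clec4f and 0.21 for Timd4, limma voom gave 0.030 for Timd4, and leaving out 1 library gave -0.40 to 0.064 for Timd4. In ZXD versus CON Clec4f was -0.15 with the pan-macrophage covariate, -0.40 with the endothelial one, -0.27 without CON 3 and CON 5 and -0.021 to 0.44 with 1 library left out. Vsig4 was 0.11 on library totals and Cd163 -0.0097 with the endothelial covariate. With the pan-macrophage covariate Cd5l was -0.12 and Marco -0.023 in HFD versus CON.

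Markers called higher in HFD versus CON were 0 with limma voom. Those called lower were 1 with DESeq2, 1 with the endothelial covariate, 1 without CON 3 and CON 5 and 0 to 1 with 1 library left out. In ZXD versus CON the count higher was 0 with the pan-macrophage covariate, 1 with the endothelial one, 0 without CON 3 and CON 5, 1 without ZXD 3 and ZXD 4 and 2 to 3 with 1 library left out.

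Genes called higher in HFD versus CON were 5390 on library totals, 791 with limma voom, 792 with the replicate block, 531 with the pan-macrophage covariate, 450 without CON 3 and CON 5 and 754 to 1630 with 1 library left out. Genes called lower were 505 on library totals, 695 with the pan-macrophage covariate, 663 without CON 3 and CON 5 and 925 to 1645 with 1 left out. In ZXD versus HFD DESeq2 gave 212 higher and 130 lower, the pan-macrophage covariate 1 lower, and leaving out 1 library 0 to 6 higher and 0 to 1 lower. In ZXD versus CON the count higher was 6046 on library totals, 1511 with limma voom, 207 and 518 with the pan-macrophage and endothelial covariates, 627 without CON 3 and CON 5 and 720 without ZXD 3 and ZXD 4. The count lower was 628, 325, 766, 835 and 896 on library totals, with these covariates in turn and without these pairs.

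Replicate numbers were not taken as pairs in the main fit. Of 15 correlations between deviations of same-numbered libraries 4 exceeded 0.1 (range -0.55 to 0.26), and 3 libraries correlated best with their own number. All 3 were between HFD and CON, at numbers 1, 2 and 3 (r 0.24, 0.22 and 0.26). The check cannot exclude a factor shared by number between these groups. With the replicate block Marco in ZXD versus CON was 2.81 with an adjusted p of 0.0788 by edgeR. Of 120 counts over the other lists 69 moved by over 1.5 times under some alternative. With 1 library left out, haem and iron genes called were 3 to 5 higher and 1 to 2 lower in HFD versus CON and 4 higher and 1 to 3 lower in ZXD versus CON. Complement genes were 2 to 6 higher and 0 to 1 lower, and 5 to 8 higher and 0 to 1 lower. Lectin genes were 2 higher and 1 to 2 lower, and 3 to 6 higher and 2 lower. Depth limits Timd4 most, at 7 to 18 reads in CON.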
